A study of Solanum lycopersicum with 18 samples.

Results

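Tomato has 6 genes of the TIFY family that are not JAZ repressors: the PEAPOD genes SlPPD1 (Solyc06g084120.4.1) and SlPPD2 (Solyc09g065630.3.1), the ZIM and ZIM-like genes SlZIM (Solyc01g106040.3.1), SlZML1 (Solyc10g047640.3.1) and SlZML2 (Solyc01g106030.4.1), and SlTIFY8 (Solyc06g065650.3.1). They were chosen by identifier, without use of their expression, and all 6 were found among the 33976 genes of the deposited tables. By their identifiers, SlZIM and SlZML2 lie next to each other in the numbering of chromosome 1, SlPPD1 and SlTIFY8 are on chromosome 6, SlPPD2 is on chromosome 9 and SlZML1 is on chromosome 10. All 6 passed the filter on low counts and were among the 19914 genes tested.

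TIFY proteins share a short motif, within the ZIM domain, through which they bind each other and adaptor proteins. The JAZ members also carry a Jas motif, by which the jasmonate receptor COI1 captures them for degradation, and so they hold back jasmonate responses until the hormone accumulates. The genes described here encode the other branches. In Arabidopsis, PPD proteins repress transcription together with KIX adaptors and TOPLESS co-repressors and limit the proliferation of dispersed meristematic cells in leaves. ZIM and ZML proteins have a CCT domain and a GATA-type zinc finger, and Arabidopsis TIFY8 is a transcriptional repressor that can recruit TOPLESS through the adaptor Ninja.

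Dry mature seeds of Criollo (small fruit), Stupicke (large fruit) and the reference genotype Micro-Tom were osmoprimed for 48 h in polyethylene glycol at -1 MPa, either with water as the control (mock) or with 2 mM methyl jasmonate (MeJA), then washed and, per the sample labels, redried for 48 h before RNA was taken. Every group had therefore been primed, and the mock groups are not untreated dry seeds. Each of the 6 groups had 3 biological replicates of 30 pooled whole seeds, which gave 18 poly-A libraries. Whether replicates came from separate mother plants is not stated, so that p-values measure the spread between these seed pools. The paper states that the RNA came from the seed lot that had served for the exudates. Genotype and seed lot therefore cannot be told apart in the comparisons between genotypes. In whole seeds, fewer cells of a type and less RNA per cell cannot be told apart.

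Library totals ranged from 18807931 to 20560389 estimated reads. Replicate 3 of mock-primed Micro-Tom stood apart: its log2 expression correlated with the other 2 libraries of its group at 0.932 and 0.941, whereas the lowest correlation within any of the other 5 groups was 0.975. Printed calls of the 6 genes that it changes, and printed values that it moves by over 1.5 times, are given with and without it. Seed transcripts were followed with 8 seed genes (a vicilin, an 11S globulin, a 2S albumin and 5 oleosins). These came from the study's lists of genes called on these samples, so their detection is not an independent check of seed identity. All 8 were detected in every library, at 3.09 TPM or more, and summed to between 4217 and 32019 TPM. The 2 chlorophyll a-b binding protein genes taken as leaf markers summed to between 1.42 and 8.36 TPM. TPM is the share of a transcript among all transcripts of a library, corrected for length, and allows genes to be compared within a library. Where libraries are said not to overlap, the share of all genes with such a separation was not determined.

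The 6 genes were expressed at low to moderate levels. SlZML2 had the highest mean level over the 18 libraries (22.8 TPM), followed by SlZML1 (19.7 TPM), SlPPD2 (15.2 TPM), SlZIM (7.76 TPM), SlTIFY8 (7.29 TPM) and SlPPD1 (2.84 TPM). SlPPD1 was measured with only 30 to 88 estimated reads per library, so counting error weighs most on this gene. Together the 6 genes summed to 85.2 ± 0.982 TPM (SD, n = 3) in mock-primed Criollo, the highest of the group means, and to 70.7 ± 5.31 TPM (SD, n = 3) in MeJA-primed Micro-Tom, the lowest. SlTIFY8 varied most, by 6.76-fold between its lowest and highest library, and SlZML2 least, by 1.37-fold.

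**Figure D1:**
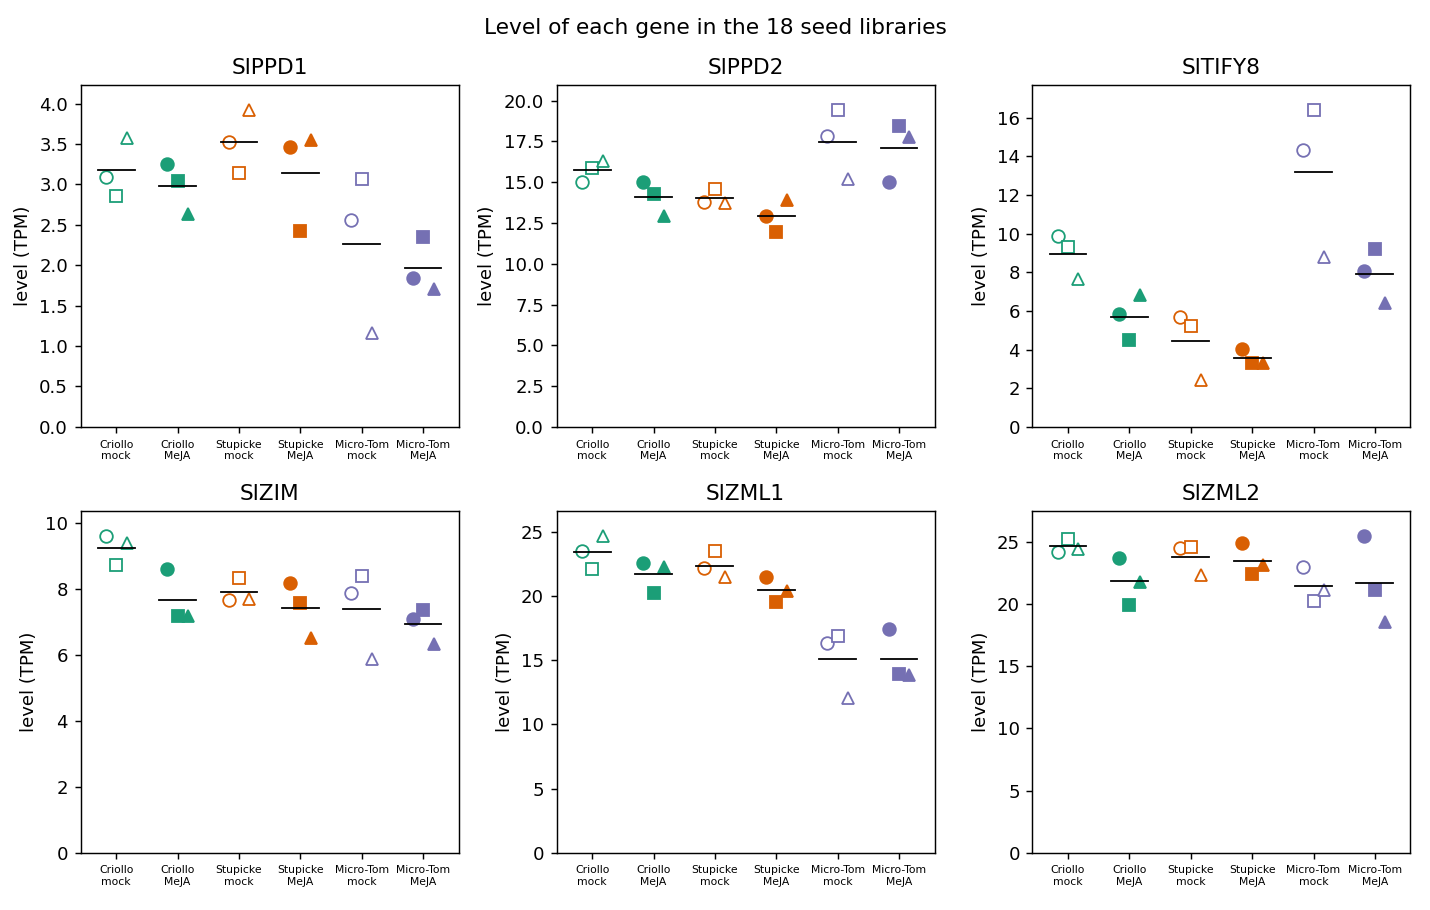
Level in TPM (vertical axes, starting at 0) of each of the 6 genes in the 18 seed libraries, by group (horizontal axes). Open symbols are mock-primed and filled symbols MeJA-primed libraries, circles, squares and triangles are replicates 1, 2 and 3, and black lines are group means. SlTIFY8 ranged from 2.42 to 16.4 TPM, and every SlZML1 value of Micro-Tom lay below every value of Criollo and Stupicke.

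The first question was whether MeJA in the priming solution changed these genes in each genotype. Only SlTIFY8 passed the test, in Micro-Tom and in the mean over the 3 genotypes, where it fell by 0.54 on the log2 scale (SE 0.13). None of the other 5 genes passed the test in any genotype. Over all genes tested, 4.40% were called in Criollo, 1.56% in Stupicke, 15.6% in Micro-Tom and 15.6% for the mean of the 3 responses. Against this background the calls among the 6 genes numbered 0 in Criollo, 0 in Stupicke, 1 in Micro-Tom and 1 for the mean. At an unadjusted p below 0.05 the numbers were 1, 0, 1 and 1, SlTIFY8 each time, and DESeq2 also called 0 in Criollo and 0 in Stupicke. For the 6 genes the median log2 fold change stood at -0.03 (Criollo), -0.10 (Stupicke) and -0.16 (Micro-Tom), beside medians of 0.01, -0.01 and -0.01 over all genes.

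SlTIFY8 had its highest level in mock-primed Micro-Tom, with 14.4, 16.4 and 8.81 TPM in replicates 1, 2 and 3. With MeJA, the Micro-Tom libraries had 8.06, 9.19 and 6.41 TPM. The groups overlapped on this scale only through replicate 3 of the mock group. In read counts scaled by TMM to a common library size (CPM), which allows for the makeup of each library, the mock libraries had 29.4, 32.6 and 25.8 CPM and the MeJA libraries 17.0, 19.0 and 14.3 CPM, without overlap. The level was 1.74-fold lower with MeJA (log2 fold change -0.80, SE 0.22, edgeR adjusted p = 0.0223). Without replicate 3 of the mock group the log2 fold change was -0.89 (adjusted p = 0.0192). The call was lost without MeJA replicate 1 (-0.81, adjusted p = 0.0654) or MeJA replicate 3 (-0.70, adjusted p = 0.0852), and with limma on log2(TPM + 1) (-0.65, adjusted p = 0.109).

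In Criollo, SlTIFY8 was at 9.88, 9.30 and 7.67 TPM in mock-primed seeds. The MeJA-primed libraries had 5.83, 4.47 and 6.82 TPM and all lay below the mock libraries. The log2 fold change of -0.51 (SE 0.22) did not pass the adjustment over all genes (unadjusted p = 0.0346, adjusted p = 0.234). It passed in 1 of 27 alternatives, limma voom with sample quality weights (adjusted p = 0.00930). Stupicke had the lowest levels of this gene, with 5.68, 5.23 and 2.42 TPM in mock-primed and 4.01, 3.32 and 3.31 TPM in MeJA-primed seeds. These groups overlapped, because replicate 3 of the mock group was the lowest of all 18 libraries, and a log2 fold change of -0.30 was found (SE 0.23, adjusted p = 1.00). Single libraries moved this value: it was -0.58 (adjusted p = 0.181) without mock replicate 3, and -0.09 and -0.20 without mock replicates 1 and 2 (adjusted p = 1.00 for both).

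The response of SlTIFY8 was not shown to differ between genotypes. The difference in log2 fold change was 0.50 between Stupicke and Micro-Tom (95% interval -0.17 to 1.16, adjusted p = 0.446), 0.30 between Criollo and Micro-Tom (-0.36 to 0.95, adjusted p = 0.723) and 0.20 between Stupicke and Criollo (-0.47 to 0.87, adjusted p = 0.961). Without Stupicke mock replicate 3 the differences that involve Stupicke were 0.23 from Micro-Tom and -0.07 from Criollo, and without Stupicke mock replicate 1 they were 0.71 and 0.42. The intervals include no difference as well as differences of the size of the responses themselves. Averaged over the 3 genotypes, SlTIFY8 was 1.45-fold lower with MeJA (95% interval of the log2 fold change -0.81 to -0.27, adjusted p = 0.00930), and this call held in all 18 fits that left out 1 library, with values from -0.63 to -0.47. It missed the threshold with limma on log2(TPM + 0.1) (adjusted p = 0.0555). None of the 6 genes passed any of the tests of a difference in response, for which 0.0301% (Stupicke and Criollo), 0.447% (Stupicke and Micro-Tom) and 0.0954% (Criollo and Micro-Tom) of all genes were called.

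The seed and leaf marker genes also differed between these groups. They were found through annotations in the study's lists of genes called on these samples. A difference in them is therefore not independent evidence. The summed level of the 8 seed genes was 8821 to 12450 TPM in mock-primed and 20542 to 24879 TPM in MeJA-primed Micro-Tom. In Criollo it was 4217 to 5301 TPM with mock and 7135 to 12160 TPM with MeJA, and in Stupicke, where SlTIFY8 was lowest, 27259 to 30614 TPM and 24602 to 32019 TPM. In this sum, MeJA libraries were thus above the mock libraries in Micro-Tom and Criollo and overlapped with them in Stupicke. The most abundant genes weigh most in it. The vicilin ranged from 979 to 18124 TPM over the libraries and the 11S globulin from 3.09 to 322 TPM. Whether the 8 seed genes changed together was not tested. The 2 leaf genes, lower with MeJA without overlap in Criollo and Stupicke, summed to 6.30 to 8.36 TPM with mock and 2.05 to 2.75 TPM with MeJA in Criollo and to 2.55 to 4.12 TPM and 1.42 to 1.69 TPM in Stupicke. In Micro-Tom their sums overlapped (3.34 to 7.10 TPM and 3.62 to 3.70 TPM). The part of these differences in the SlTIFY8 values was not tested.

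For the PPD genes the responses to MeJA were small relative to their error. Values of -0.02 (Criollo), -0.10 (Stupicke) and -0.12 (Micro-Tom) on the log2 scale were found for SlPPD2, each with an SE of 0.10, and the interval of the mean response reached from -0.21 to 0.05. SlPPD1, with its low counts, was less well determined: the mean response was -0.11, with an interval from -0.39 to 0.16, and -0.18 (adjusted p = 0.273) without Micro-Tom mock replicate 3. In Micro-Tom alone SlPPD1 had a value of -0.22 (adjusted p = 0.527), and -0.42 (adjusted p = 0.204) without that library, while the SlPPD2 value went from -0.12 to -0.05. In Criollo the SlPPD2 libraries only just did not overlap, with 15.0, 15.9 and 16.3 TPM with mock and 15.0, 14.3 and 13.0 TPM with MeJA, but on the TPM scale the median of all genes in Criollo was itself lower with MeJA, by -0.12 on the log2 scale.

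The ZIM and ZML genes also gave no call for MeJA. SlZIM had log2 fold changes of -0.13, -0.07 and -0.19 in Criollo, Stupicke and Micro-Tom, and its mean response was -0.13 (95% interval -0.27 to 0.01, adjusted p = 0.189). In Criollo both SlZIM (8.71 to 9.61 TPM with mock, 7.19 to 8.60 TPM with MeJA) and SlZML2 (24.2 to 25.2 TPM and 20.0 to 23.7 TPM) had MeJA libraries below all mock libraries in TPM, the scale on which the median of all genes was lower as well. The intervals of the mean response were -0.19 to 0.08 for SlZML1 and -0.21 to 0.13 for SlZML2. In Micro-Tom the value of SlZML2 was -0.09, but 0.09 without Micro-Tom mock replicate 3 and 0.02 for the ratio of mean TPM, and its mean response of -0.04 became 0.02 without that library.

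**Figure D2:**
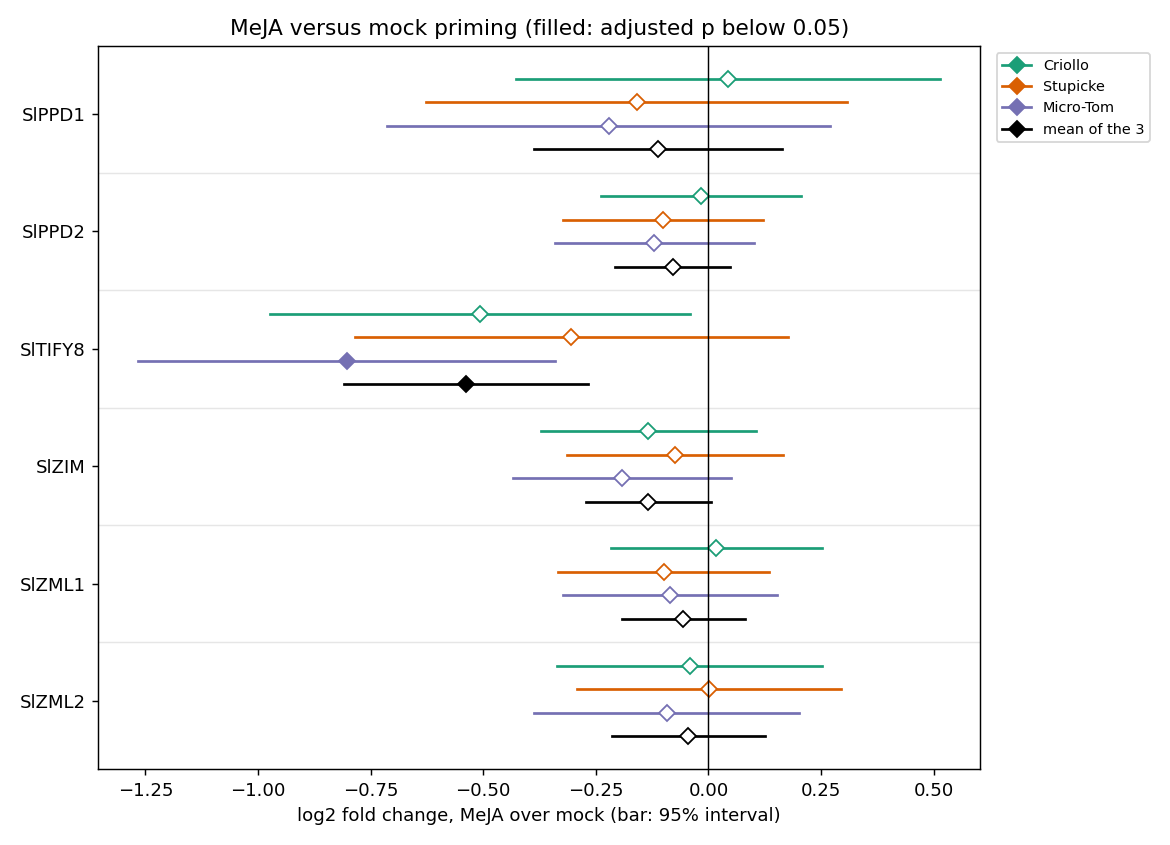
Log2 fold change of MeJA over mock priming (horizontal axis) for each of the 6 genes (rows), from edgeR, in Criollo, Stupicke, Micro-Tom and as the mean of the 3, with 95% intervals as bars and filled symbols for an adjusted p below 0.05. SlTIFY8 in Micro-Tom (-0.80) and in the mean (-0.54) are the filled symbols.

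The JAZ branch of the family rose with MeJA in the same libraries. Of the 13 tomato JAZ genes listed, 12 had a row in the tables and 9 passed the filter. All 9 were called higher with MeJA in each of the 3 genotypes. Over all genes tested, 3.19% (Criollo), 1.45% (Stupicke) and 7.98% (Micro-Tom) were called higher. SlJAZ5, for example, went from 41.6 to 120 TPM in Criollo, from 33.6 to 93.4 TPM in Stupicke and from 87.0 to 266 TPM in Micro-Tom (log2 fold changes 1.67, 1.49 and 1.55, SE 0.12 in each, edgeR adjusted p of 4.85e-07, 2.37e-06 and 5.11e-07). Several JAZ genes had been named by the study for this response in these samples, so that the list is not independent evidence of its direction. SlJAZ4, SlJAZ7 and SlJAZ11 had mock group means of at most 0.0918 TPM, so they could pass the filter through MeJA libraries alone. SlJAZ8 and SlJAZ12, at or below 0.0758 TPM in every group mean, were not tested. SlJAZ10 was not tested either, with 0 TPM in the mock groups and a mean of 1.58 TPM in MeJA-primed Micro-Tom. The count of 9 is therefore partly set by the filter. The smallest rise among the tested JAZ genes was a log2 fold change of 1.67 (Criollo), 1.45 (Stupicke) and 1.55 (Micro-Tom). The upper ends of the intervals of the 6 genes described here were at most 0.51 in these comparisons.

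Partner genes were taken from annotations in the study's lists of MeJA calls and are likewise not independent. Other TOPLESS genes, not named there, were not examined. The co-repressor gene TOPLESS 3 (Solyc01g100050) and the adaptor gene Ninja (Solyc06g083290), whose products can link TIFY proteins to repression, both rose in Micro-Tom, by log2 fold changes of 0.67 (SE 0.14, adjusted p = 0.00498) and 1.67 (SE 0.40, adjusted p = 0.0120). Neither was called in Criollo (0.27 and 0.67) or Stupicke (0.06 and -0.31). Of 2 further GATA zinc finger genes, Solyc03g120890 fell by 1.02 on the log2 scale in Criollo (SE 0.23, adjusted p = 0.0203) and by 1.12 in Micro-Tom (SE 0.23, adjusted p = 0.00570). The second, Solyc08g066510, fell by 2.01 in Criollo (SE 0.53, adjusted p = 0.0434), and its value in Micro-Tom was -1.36 (adjusted p = 0.0727). Neither was called in Stupicke (-0.04 and -0.72).

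The second question was how the genes differ between genotypes. In mock-primed seeds, 1 of the 6 genes was called between Stupicke and Criollo, 4 between Stupicke and Micro-Tom and 3 between Criollo and Micro-Tom. Over all genes 41.7%, 60.5% and 50.0% were called in these comparisons, so that a share of 3 or 4 among 6 genes is near the background. In MeJA-primed seeds the counts were 0, 5 and 2, beside 22.4%, 44.2% and 39.1% over all genes. The count of 0 between MeJA-primed Stupicke and Criollo came from edgeR and also from DESeq2, with 1 gene at an unadjusted p below 0.05. The 3 comparisons at each treatment share libraries and are not independent of each other.

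SlTIFY8 was highest in Micro-Tom, lower in Criollo and lowest in Stupicke in mock-primed seeds, and each step of this order passed the test. Its mean level was 13.2 ± 3.92 TPM in Micro-Tom, 8.95 ± 1.15 TPM in Criollo and 4.45 ± 1.76 TPM in Stupicke (SD, n = 3 each). Every Stupicke library lay below every Criollo and Micro-Tom library, whereas Criollo and Micro-Tom overlapped in TPM. Stupicke was 2.72-fold lower than Micro-Tom (log2 fold change -1.45, SE 0.22, adjusted p = 5.07e-05) and 1.70-fold lower than Criollo (-0.77, SE 0.22, adjusted p = 0.0112). Without Stupicke mock replicate 3, the lowest library, the latter value was -0.50 (adjusted p = 0.0418). Criollo was 1.60-fold lower than Micro-Tom (-0.68, SE 0.22, adjusted p = 0.0168), a call that was lost without Micro-Tom mock replicate 2 (-0.59, adjusted p = 0.0514) or Criollo mock replicate 3 (-0.58, adjusted p = 0.0699), and with limma on log2(TPM + 1) (-0.48, adjusted p = 0.134).

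The order of SlTIFY8 levels was the same in MeJA-primed seeds, with 7.89 ± 1.40 TPM in Micro-Tom, 5.71 ± 1.18 TPM in Criollo and 3.55 ± 0.399 TPM in Stupicke (SD, n = 3 each). There only Stupicke and Micro-Tom, the ends of the order, passed the test (-0.95, SE 0.22, adjusted p = 0.00302). Stupicke libraries again lay below all Criollo libraries, but the difference did not pass (-0.57, SE 0.23, adjusted p = 0.0837). It passed when Stupicke mock replicate 3, which enters only the shared estimate of the spread, was left out (-0.57, adjusted p = 0.0168), in a fit of the 6 libraries alone (-0.57, adjusted p = 0.0255) and with limma voom and sample quality weights (-0.58, adjusted p = 0.0157). Criollo and Micro-Tom did not pass (-0.38, 95% interval -0.85 to 0.09).

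SlZML1, a GATA zinc finger gene, separated Micro-Tom from the others under both treatments. Its levels were 16.4, 16.9 and 12.1 TPM in mock-primed and 17.4, 13.9 and 13.9 TPM in MeJA-primed Micro-Tom. Criollo had 23.5, 22.2 and 24.7 TPM with mock and 22.6, 20.3 and 22.3 TPM with MeJA. Stupicke had 22.2, 23.5 and 21.5 TPM with mock and 21.5, 19.6 and 20.4 TPM with MeJA. Thus all 6 Micro-Tom libraries were below all 12 others. How many of all genes separate Micro-Tom in this way was not determined. In mock-primed seeds SlZML1 was 1.51-fold higher in Stupicke than in Micro-Tom (log2 fold change 0.59, SE 0.11, adjusted p = 3.00e-04) and 1.35-fold higher in Criollo (0.44, SE 0.11, adjusted p = 0.00423). In MeJA-primed seeds the values were 1.49-fold (0.58, SE 0.11, adjusted p = 6.49e-04) and 1.45-fold (0.54, SE 0.11, adjusted p = 0.00130). Each of these 4 calls held in all 27 alternatives run, and without Micro-Tom mock replicate 3 the mock values were 0.62 and 0.47. Stupicke and Criollo, neighbours in the order of levels, did not pass the test (0.16 with mock, 95% interval -0.08 to 0.39; 0.04 with MeJA, -0.20 to 0.27).

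The neighbouring genes SlZIM and SlZML2 differed less between genotypes. SlZML2 had group means between 21.5 and 24.6 TPM and was called in no comparison of the main fit. With limma voom and sample quality weights it passed for Stupicke against Micro-Tom under both treatments and for mock-primed Stupicke against Criollo. The latter value (0.18, adjusted p = 0.305) also passed in a fit of only the libraries compared, and changed sign in 2 alternatives. Between mock-primed Criollo and Micro-Tom it was 0.02, and 0.21 (adjusted p = 0.145) without Micro-Tom mock replicate 3. Its value nearest to a call was that between MeJA-primed Stupicke and Micro-Tom (0.30, SE 0.14, adjusted p = 0.0908), which passed without Micro-Tom mock replicate 3 (0.30, adjusted p = 0.0194) or without Micro-Tom MeJA replicate 1 (0.46, adjusted p = 0.0154). Between the mock-primed groups of the same genotypes it was 0.21 (adjusted p = 0.209), and 0.39 (adjusted p = 0.00782) without Micro-Tom mock replicate 3. SlZIM, whose Arabidopsis counterpart gave the ZIM domain its name, had group means from 6.92 ± 0.527 TPM in MeJA-primed Micro-Tom to 9.23 ± 0.465 TPM in mock-primed Criollo (SD, n = 3 each).

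SlZIM was called once, 1.27-fold higher in MeJA-primed Stupicke than in Micro-Tom (0.35, SE 0.11, adjusted p = 0.0217). This call was not kept without Micro-Tom MeJA replicate 3 (adjusted p = 0.0705), Stupicke MeJA replicate 1 (adjusted p = 0.0730) or Stupicke MeJA replicate 2 (adjusted p = 0.0876), and the libraries overlapped in TPM (6.52 to 8.19 TPM in Stupicke, 6.34 to 7.36 TPM in Micro-Tom). It was also not kept in a fit of the 6 libraries alone (0.32, adjusted p = 0.0546) or with limma on log2(TPM + 1) (0.09, adjusted p = 0.659). Between MeJA-primed Criollo and Micro-Tom the value was 0.27 (adjusted p = 0.0678), which passed without Micro-Tom mock replicate 3 (0.28, adjusted p = 0.0338).

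Between Stupicke and Micro-Tom, the paired PPD genes differed in opposite directions. SlPPD1 was lower and SlPPD2 higher in Micro-Tom than in Stupicke under both treatments. SlPPD1 had 3.52, 3.14 and 3.92 TPM in mock-primed Stupicke and 2.56, 3.07 and 1.16 TPM in mock-primed Micro-Tom. These groups did not overlap, and the level was 1.68-fold higher in Stupicke (log2 fold change 0.75, SE 0.23, adjusted p = 0.00902). Without Micro-Tom mock replicate 3, the lowest library, it was 0.55 (adjusted p = 0.0316), and it did not pass in a fit of the 6 libraries alone (0.75, adjusted p = 0.0789). With MeJA, SlPPD1 had 3.46, 2.43 and 3.55 TPM in Stupicke and 1.84, 2.35 and 1.70 TPM in Micro-Tom, a 1.76-fold difference (0.81, SE 0.23, adjusted p = 0.00885) that did not pass with limma on log2(TPM + 1) (0.48, adjusted p = 0.0677).

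For SlPPD2 the corresponding levels were 13.8, 14.6 and 13.7 TPM in mock-primed Stupicke and 17.8, 19.4 and 15.2 TPM in mock-primed Micro-Tom, without overlap. The level was 1.22-fold lower in Stupicke (-0.29, SE 0.10, adjusted p = 0.0268). This call was lost without Micro-Tom mock replicate 3 (-0.21, adjusted p = 0.0736), Stupicke mock replicate 1 (-0.26, adjusted p = 0.0847) or Stupicke mock replicate 2 (-0.28, adjusted p = 0.0707), without the filter on low counts (adjusted p = 0.0567) and in a fit of the 6 libraries alone (adjusted p = 0.111). With MeJA the Stupicke libraries had 12.9, 11.9 and 13.9 TPM and the Micro-Tom libraries 15.0, 18.4 and 17.8 TPM. This difference was at the threshold (-0.27, SE 0.10, adjusted p = 0.0495) and passed in only 3 of the 18 fits that left out 1 library: those without Micro-Tom mock replicate 3, Micro-Tom MeJA replicate 1 or Stupicke MeJA replicate 3. In the 15 others the value lay between -0.27 and -0.21, with an adjusted p of up to 0.173 (without Micro-Tom MeJA replicate 3).

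Criollo stood between the other genotypes or close to Stupicke for both PPD genes. With mock, SlPPD2 was 1.28-fold lower in Criollo than in Micro-Tom (-0.36, SE 0.10, adjusted p = 0.00978; -0.28 and 0.0245 without Micro-Tom mock replicate 3), which did not hold in a fit of these 6 libraries alone (adjusted p = 0.0651) or with limma on log2(TPM + 1) (-0.14, adjusted p = 0.341), while SlPPD1 did not pass (0.36, 95% interval -0.12 to 0.83; 0.15 without Micro-Tom mock replicate 3). With MeJA, SlPPD1 was 1.54-fold higher in Criollo (0.62, SE 0.23, adjusted p = 0.0417), with 3.25, 3.04 and 2.63 TPM against 1.84, 2.35 and 1.70 TPM. That call was lost in 6 of the 18 fits without 1 library, with an adjusted p from 0.0502 to 0.125: without Micro-Tom MeJA replicate 1 or 3, Criollo mock replicate 1, Criollo MeJA replicate 1 or 2, or Stupicke mock replicate 1. It was also lost without the filter on low counts (adjusted p = 0.0595) and with limma on log2(TPM + 1) (0.43, adjusted p = 0.113). SlPPD2 did not pass in MeJA-primed seeds (-0.25, adjusted p = 0.0654), but did without Micro-Tom mock replicate 3 (-0.25, adjusted p = 0.0248) or Micro-Tom MeJA replicate 1 (-0.33, adjusted p = 0.0280). Stupicke and Criollo did not pass for either gene under either treatment (SlPPD1 0.40 with mock, 95% interval -0.07 to 0.86, and 0.19 with MeJA, -0.28 to 0.66; SlPPD2 0.07, -0.15 to 0.29, and -0.01, -0.23 to 0.21).

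**Figure D3:**
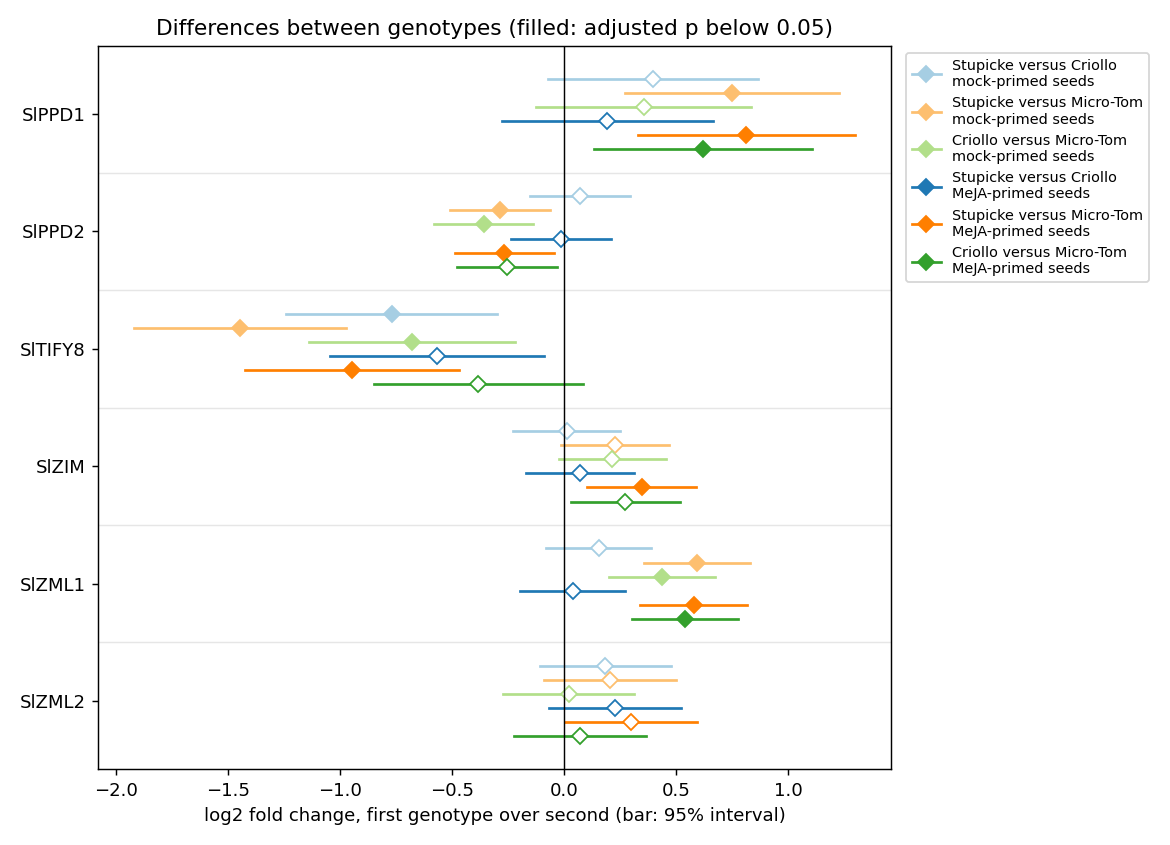
Log2 fold change between genotypes (horizontal axis, first-named over second-named) for each of the 6 genes (rows) in mock-primed (light) and MeJA-primed (dark) seeds, from edgeR, with 95% intervals as bars and filled symbols for an adjusted p below 0.05. SlTIFY8 and SlPPD2 lie left of 0 and SlZML1, SlPPD1 and SlZIM right of 0 in the comparisons with Micro-Tom, and no symbol of SlZML2 is filled.

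Ratios within a library do not depend on its scaling. The ratio of SlPPD2 to SlPPD1 in TPM lay between 6.33 and 13.1 for the 6 libraries of Micro-Tom and between 3.50 and 5.56 for the 12 others. The ratio of SlZML2 to SlZML1 was 1.20 to 1.75 in Micro-Tom and 0.979 to 1.16 in the others. In both cases the Micro-Tom libraries did not overlap with the rest, and the highest ratio belonged to replicate 3 of mock-primed Micro-Tom; without it the upper ends in Micro-Tom were 10.5 and 1.52. These ratios are given as a description, without a test, and how many other gene pairs separate Micro-Tom in this way was not determined. The estimated reads per TPM of a gene, which reflect the effective transcript length used in the quantification, stayed within 0.949 to 1.07 of the mean of Criollo and Stupicke for all 6 genes in the Micro-Tom libraries.

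**Figure D4:**
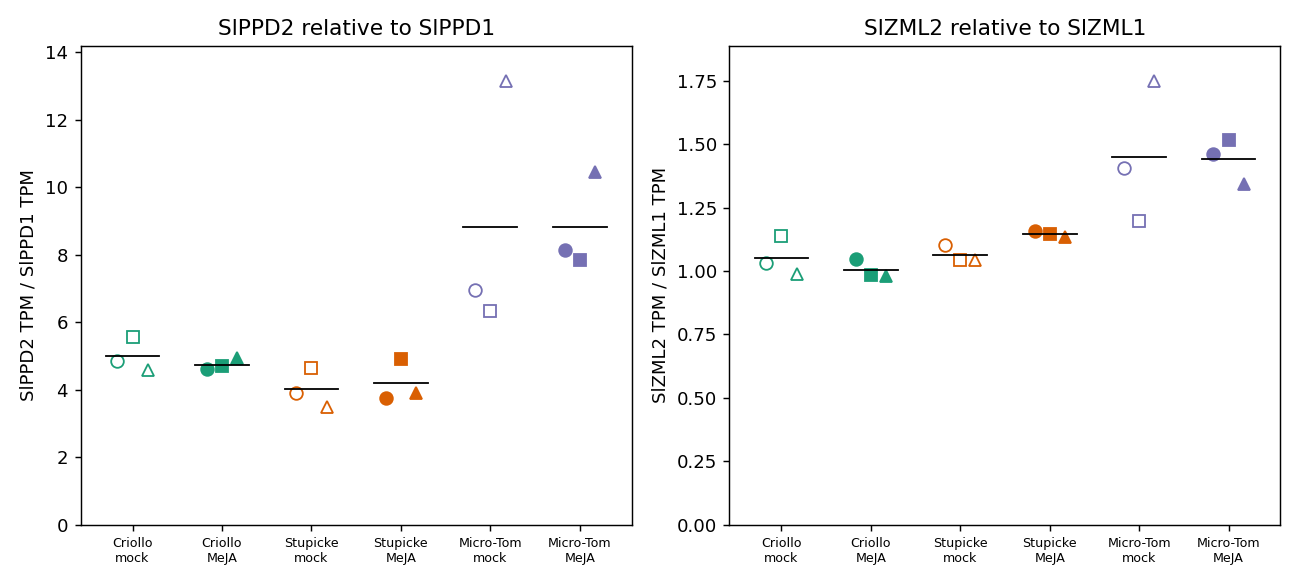
Ratio of TPM within each library (vertical axes, starting at 0) of SlPPD2 to SlPPD1 and of SlZML2 to SlZML1, by group (horizontal axes), with open symbols for mock, filled symbols for MeJA, circles, squares and triangles for replicates 1, 2 and 3, and black lines for group means. The Micro-Tom ratios, 6.33 to 13.1 and 1.20 to 1.75, lie above those of the 12 other libraries.

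Across the 18 libraries, which share genotypes and treatments, the log2 levels of the 6 genes were related to each other to different degrees. Pearson's r was 0.80 for SlZIM and SlZML1, 0.75 for SlPPD1 and SlZML1, -0.75 for SlPPD2 and SlZML1, -0.65 for SlTIFY8 and SlZML1 and -0.54 for the 2 PPD genes. SlZIM and its neighbour SlZML2 had an r of 0.57. Among 17355 genes with a mean of at least 1 CPM, those most like SlTIFY8 were Solyc04g072850 and Solyc04g080620 (r of 0.97 for both), and those most like SlZML1 were Solyc01g100060 (0.98) and Solyc05g018810 (0.97). For the other 4 genes the 2 most similar genes had an r between 0.878 and 0.958. The tables do not pair these identifiers with gene names, and the values are a description of the libraries.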

How the data were processed

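RNA of 18 seed samples (6 groups of 3) was sequenced as paired-end reads on a BGISEQ-500 instrument. The authors trimmed the reads and quantified them with Salmon 1.2 on the ITAG4.0 transcripts of the SL4.0 assembly. The estimated counts were deposited without normalization, and the deposited TPM values are scaled by the authors within each library with Salmon's effective lengths. Salmon divides reads between similar transcripts: the estimated count was not whole (tolerance 0.01) in 0 of 18 libraries for SlPPD1, in 4 for SlPPD2, SlTIFY8, SlZIM and SlZML1 and in 8 for SlZML2. The authors tested with DESeq2.

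The estimated counts were then rounded and tested with edgeR 4.0.16 (R 4.3.3): filterByExpr, TMM, 1 mean per group over all 18 libraries, the quasi-likelihood test and Benjamini-Hochberg adjustment over the 19914 genes tested, called at 0.05. SE is the log2 fold change divided by the root of the F statistic, and 95% intervals use the degrees of freedom of that test. There were 13 comparisons: MeJA with mock in each genotype and on average, genotypes with each other in mock-primed and MeJA-primed seeds, and the differences in MeJA response. Alternatives were RLE size factors, no filter, a stricter filter (10 counts or more in every library of a group), DESeq2 1.42.0, only the libraries compared, a replicate block, limma 3.58.1 on log2(TPM + 1) and log2(TPM + 0.1), voom with sample quality weights, and each library left out. Likeness is Pearson's r of log2 CPM with a prior count of 2. Figures were drawn with matplotlib 3.10.9.

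In data simulated for MeJA against mock in Stupicke with 200 changed genes, the test recovered 106 at a log2 fold change of 1 (5 false calls, 19423 genes) and 1 at 0.5 (0 false calls, 19441 genes). All other genes had the same mean in every group. The other comparisons, most with more genes called, were not simulated, so this recovery cannot be carried over to them. Genes named are the 6 members, the 2 most similar genes of each (given in full for SlTIFY8 and SlZML1), and examples from the JAZ, co-repressor and GATA lists. D3-type cyclins, GRF-interacting factors, KIX and STERILE APETALA genes were not analysed, since the annotations used here name none. The members, lists and tests were chosen with earlier results of these data known. No sequences are shown, since none were used here for these identifiers.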

Additional observations from a re-analysis of the deposited data

How the results depend on the processing

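In 78 values (6 genes in 13 comparisons), 17 were called. Over the alternatives, 406 of 458 fits of these 17 values gave the same call and 0 the opposite sign. Most of these fits left out 1 library, often from a group not compared, so this share overstates how firm the calls are. Calls kept in all alternatives were SlZML1 in Stupicke and in Criollo against Micro-Tom under both treatments. SlTIFY8 was also kept for Stupicke against Micro-Tom under both treatments and for mock-primed Stupicke against Criollo. Every other call was lost in at least 1 alternative. Of the 61 values not called, 30 changed sign and 10 were called in at least 1 alternative. The cause of the changes below was not tested.

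The counts of called genes below are given without the share of all genes called under the same setting. They describe the 6 genes only and are not set against a background. The number of the 6 genes called changed as follows with all libraries of the groups compared kept. For MeJA against mock, it was 1 rather than 0 in Criollo with voom quality weights, 0 rather than 1 in Micro-Tom with limma under both TPM pseudocounts, and 0 rather than 1 for the mean response on log2(TPM + 0.1). In mock-primed seeds, Stupicke against Criollo gave 2 rather than 1 in the fit of only the libraries compared and with voom, Stupicke against Micro-Tom gave, rather than 4, 2 in the fit of only the libraries compared, 3 without a filter and 6 with voom, and Criollo against Micro-Tom gave, rather than 3, 1 with both TPM pseudocounts, 2 in the fit of only the libraries compared and 4 with voom. In MeJA-primed seeds, Stupicke against Criollo gave 1 rather than 0 in the fit of only the libraries compared and with voom, Stupicke against Micro-Tom gave, rather than 5, 3 with both TPM pseudocounts, 4 without a filter and in the fit of only the libraries compared and 6 with voom, and Criollo against Micro-Tom gave 1 rather than 2 without a filter, with the replicate block and with both TPM pseudocounts, 3 with DESeq2 and 5 with voom. SlZML2 in mock-primed Stupicke against Criollo, 0.18 and not called, was -0.0477 on log2(TPM + 1) and -0.0496 with a pseudocount of 0.1.

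When 1 library was left out, the count ranged from 0 to 1 for MeJA in Micro-Tom, from 3 to 4 and 2 to 3 for mock-primed Stupicke and Criollo against Micro-Tom, from 0 to 1 for MeJA-primed Stupicke against Criollo, from 3 to 6 for MeJA-primed Stupicke against Micro-Tom and from 1 to 4 for MeJA-primed Criollo against Micro-Tom. It did not change in the other 7 comparisons.

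Replicate numbers did not pair the libraries: the deviations of same-numbered libraries correlated at -0.39 to 0.34, above 0.1 in 11 of 45 pairs, and a library was most like its own number in 29 of 90 combinations of a library with another group. With the replicate block the 1 call lost was SlPPD1 between MeJA-primed Criollo and Micro-Tom (0.62, adjusted p = 0.0607). TPM and TMM differ in what they hold constant: on log2(TPM + 1) the median of all genes shifted by -0.12 for MeJA in Criollo, -0.23 and -0.10 for Stupicke against Criollo (mock and MeJA), 0.20 for mock-primed Criollo against Micro-Tom and -0.11 for MeJA-primed Stupicke against Micro-Tom. Genes higher and lower then numbered 408 and 461 rather than 635 and 242 for MeJA in Criollo, 2268 and 6565 rather than 3993 and 4309 for mock-primed Stupicke against Criollo, and 6098 and 3265 rather than 4744 and 5217 for mock-primed Criollo against Micro-Tom.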
